A study of Rattus norvegicus with 10 samples.

Results

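The carriers described here are the plasma membrane and organelle transporters of amino acids, glucose and related sugars, and monocarboxylates such as lactate. Members were the probe sets to which the array annotation gives a single gene symbol of the Slc1a, Slc2a, Slc3a, Slc5a, Slc6a, Slc7a, Slc16a, Slc36a or Slc38a families, with Slc7a11 left out. The rule used names only and no measured value, although it was chosen with earlier results of these data known. It took 103 of the 31042 probe sets tested, which stand for 76 genes. One of these genes, Slc7a6os, lies opposite Slc7a6, carries its name and is itself no carrier. Resident peritoneal macrophages of Wistar rats (strain Hsdcpb:WU, age not given) were kept for 3 days with myelin from brain tissue at 100 µg/ml (mye-macrophages, 5 samples) or without it (control macrophages, 5 samples). IFNγ and IL-1β at 100 ng/ml followed for 9 hours in all 10 samples, so neither group was unstimulated, and each sample was measured on its own Affymetrix rat expression array. The labels do not say whether samples came from different animals. The p-values of paired fits measure the spread of the differences between samples of the same replicate number. Those of unpaired tests measure the spread between the samples of a group, and neither reaches beyond these samples.

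Carriers of these families set which fuels and building blocks a cell can exchange with its surroundings. Slc1a proteins take up glutamate or exchange neutral amino acids along sodium gradients, Slc2a proteins (GLUT) let sugars pass down their gradient, and Slc5a proteins couple sugars, vitamins or inositol to sodium. Slc3a genes encode the heavy chains that bring many Slc7a light chains to the membrane, Slc6a carries amino acids, creatine and neurotransmitters, Slc16a proteins (MCT) carry lactate and relatives, and Slc36a and Slc38a move small neutral amino acids, some of them out of lysosomes. In macrophages, arginine uptake through Slc7a1 and Slc7a2 feeds nitric oxide synthase and arginase, and glucose entry and lactate release accompany inflammatory activation.

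Of the 103 probe sets, 2 were higher in mye-macrophages, 1 each for the glutamate transporter gene Slc1a3 and the creatine transporter gene Slc6a8, and none was lower. A probe set is called here at an adjusted p under 0.05 in limma with the replicate number as a block, where samples of the same number form a pair. The Benjamini-Hochberg adjustment ran over the 15521 probe sets that varied most by interquartile range, and adjusted p-values below come from this blocked limma fit unless another is named. Of the members, 49 passed that variance filter and could be called. Over all 15521 probe sets, 0.792% were called higher and 1.9% lower. Unadjusted, 6 members had p under 0.05 upwards and 6 downwards in the same limma fit, where the shares over all 31042 probe sets were 5.51% and 6.62%. Without the block, limma called no member in either direction. The log2 fold change was above 0 for 50 members and below 0 for 53 (48.5% above, against 51.6% of all probe sets), with a median of -0.0051 and a range from -0.31 to 0.91. The median over all probe sets tested was 0.0044. The 95% confidence interval of a member's log2 fold change reached 0.18 to either side at the median and 0.39 at most. Signals are log2 RMA values whose array medians lay between 2.3 and 2.34. For 59 of the members the mean signal was under the median of all probe sets, 2.32, where a difference in RNA is compressed by background.

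**Figure D1:**
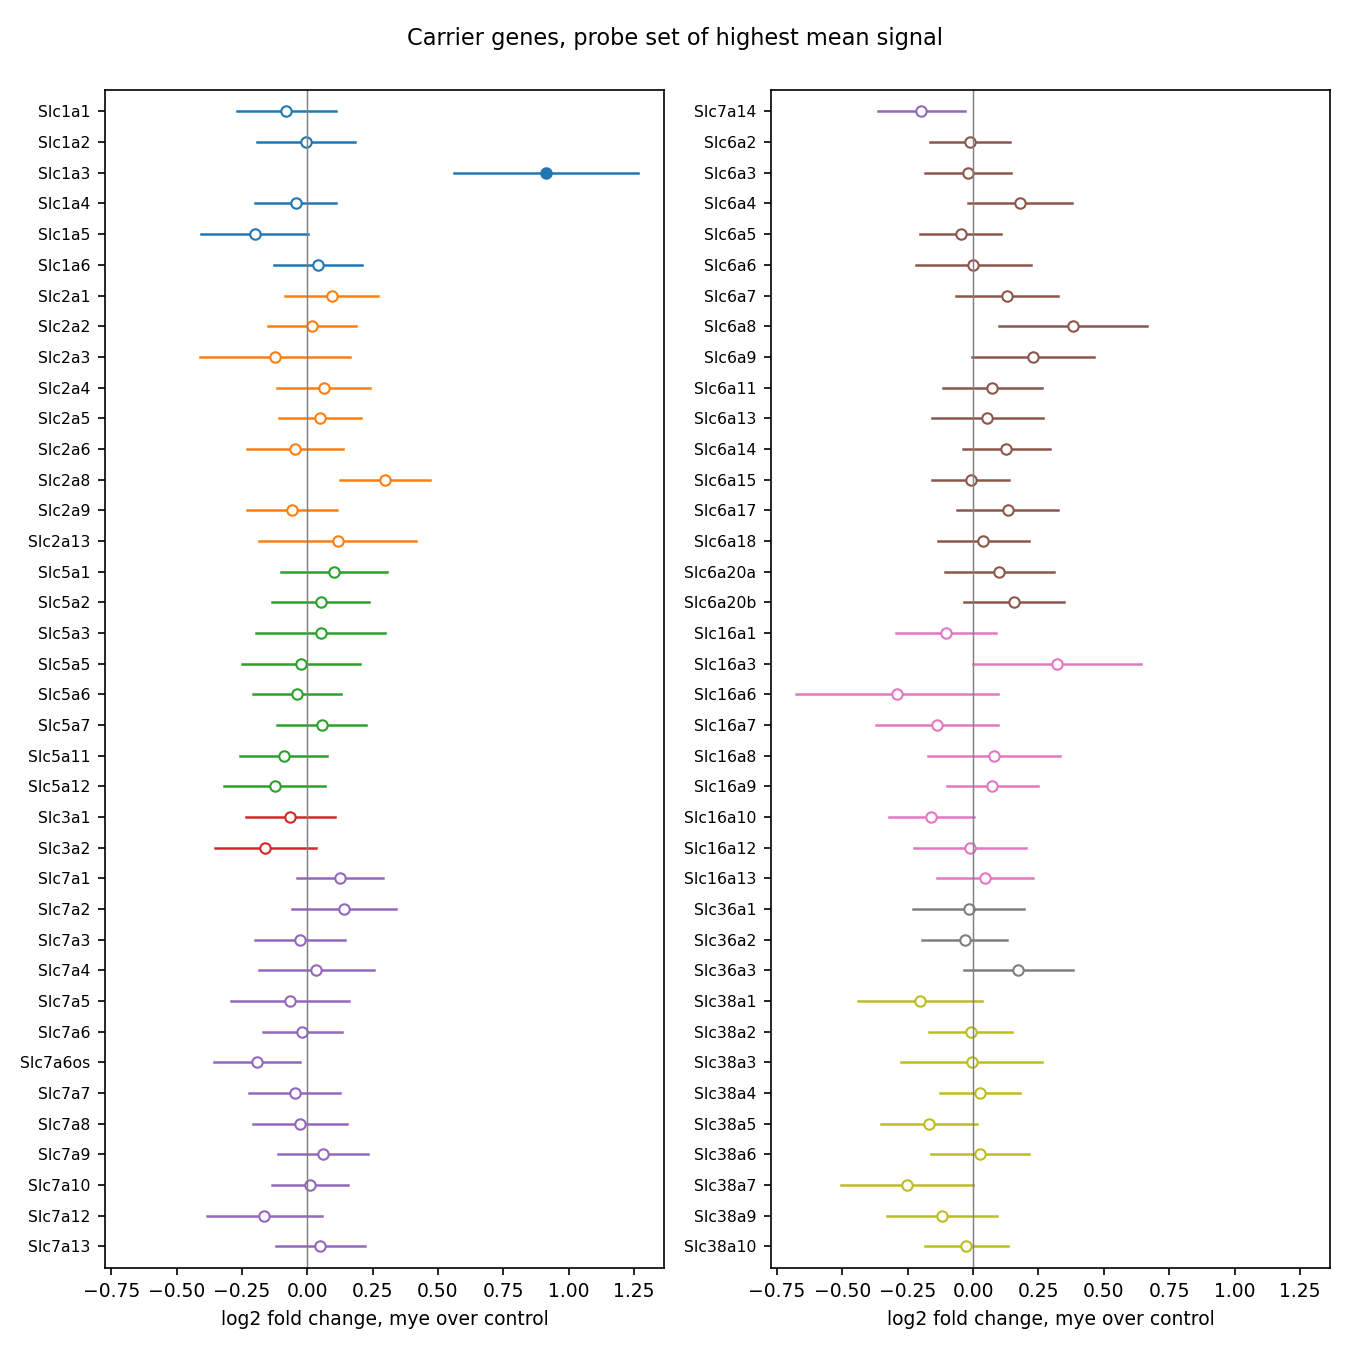
Log2 fold change (mye-macrophages over control macrophages, horizontal axis) of the 76 genes, each by its probe set of highest mean signal, with the 95% confidence interval of the blocked limma fit and colours marking the families. Slc1a3, the filled point at 0.91, was called, while Slc6a8 was called on its other probe set and is open here at 0.38.

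Slc1a3, which encodes the glutamate and aspartate transporter GLAST, had the largest rise of the members. On probe set 1368565_at the control macrophages numbered 1 to 5 had log2 signals of 3.62, 2.37, 2.57, 4.78 and 2.39. The mye-macrophages of the same numbers had 5.35, 3.23, 3.09, 5.74 and 2.89. Replicates 1 and 4 were high in both groups, so the groups overlapped, yet the mye-macrophage sample lay above its control in 5 of 5 pairs, by 1.73, 0.86, 0.52, 0.96 and 0.50. The log2 fold change was 0.91 (1.89-fold, SE 0.16, 95% confidence interval 0.56 to 1.27, adjusted p = 0.0247). Without the pairing the difference was within the spread of the samples (two-sided exact permutation test, p = 0.238; adjusted p = 0.899 from limma without the block). The call was also lost on leaving out any of the pairs 1, 2, 4 and 5 (lowest adjusted p = 0.0506 in limma), with log2 fold changes of 0.71 to 1.02 without 1 pair.

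The further Slc1a3 probe sets did not pass. Probe set 1388064_a_at had signals of 1.19 to 1.60 in control macrophages and 1.23 to 2.07 in mye-macrophages, with a log2 fold change of 0.17 (95% confidence interval -0.13 to 0.46) and 3 of 5 pairs higher. Probe set 1371130_at had 0.55 to 0.96 and 0.70 to 0.97, a log2 fold change of 0.12 (-0.044 to 0.28) and 4 of 5 pairs higher. Both lay under the median signal of all probe sets in every sample, so the rise of Slc1a3 rests on 1 probe set.

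Slc6a8, which encodes the creatine transporter, was higher in 5 of 5 pairs on both of its probe sets. Their mean signals, 2.725 on 1386934_at and 2.959 on 1367810_at, lay little above the median of all probe sets, 2.32. The control of replicate 3 on 1386934_at lay under that median. On 1386934_at the control macrophages numbered 1 to 5 had log2 signals of 2.38, 2.63, 2.30, 2.81 and 2.51, and the mye-macrophages had 2.71, 3.16, 2.68, 3.00 and 3.10. The groups overlapped through the control of replicate 4, the highest control. The log2 fold change was 0.41 (1.32-fold, SE 0.077, adjusted p = 0.0325). On 1367810_at the controls had 2.67 to 2.85 and the mye-macrophages 2.88 to 3.74, with replicate 2 the highest of them. There the groups did not overlap (two-sided exact permutation test, p = 0.00794, the lowest value this design can give), and the log2 fold change was 0.38 (95% confidence interval 0.098 to 0.66), or 0.22 without pair 2. This second probe set did not pass the variance filter, so it could not be called. The call on the first was lost without the block (adjusted p = 0.542 from limma), without the variance filter (adjusted p = 0.065 in limma) and on leaving out any of the pairs 1, 2, 4 and 5 (lowest adjusted p = 0.0609 in limma). Its log2 fold change was the same without the block or the filter and 0.36 to 0.46 without 1 pair.

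The stretches before the annotated starts of the 2 genes with a call are shown because both genes rose. They come from RefSeq on GRCr8, 250 bases each, read 5′ to 3′ on the strand of the gene, chr2:59557809-59558058 (minus strand, the most upstream of 3 starts) for Slc1a3 and chrX:156535767-156536016 (plus strand) for Slc6a8. Capitals would mark a match to AGGTCA, the half-site of LXR, PPAR and related nuclear receptors, to TGATGNAA, a form of the amino acid response element, or to CACGTG, the E-box, on either strand.
Slc1a3: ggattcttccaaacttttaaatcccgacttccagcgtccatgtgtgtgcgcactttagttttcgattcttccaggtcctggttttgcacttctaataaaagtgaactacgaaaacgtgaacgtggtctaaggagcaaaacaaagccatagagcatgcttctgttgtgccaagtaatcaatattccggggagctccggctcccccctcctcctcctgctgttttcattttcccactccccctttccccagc
Slc6a8: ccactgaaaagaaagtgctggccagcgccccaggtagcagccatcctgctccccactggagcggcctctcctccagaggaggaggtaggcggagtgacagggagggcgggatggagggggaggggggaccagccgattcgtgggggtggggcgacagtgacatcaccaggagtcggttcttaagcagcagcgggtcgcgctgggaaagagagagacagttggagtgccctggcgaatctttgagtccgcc
Neither window held any of the 3 motifs, which says only that these letters are not in it. The motifs lay in 14.1%, 3.4% and 5.59% of the 33469 windows of the same length in the table. G or C made up 48% of the Slc1a3 window and 64.4% of the Slc6a8 window.

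**Figure D2:**
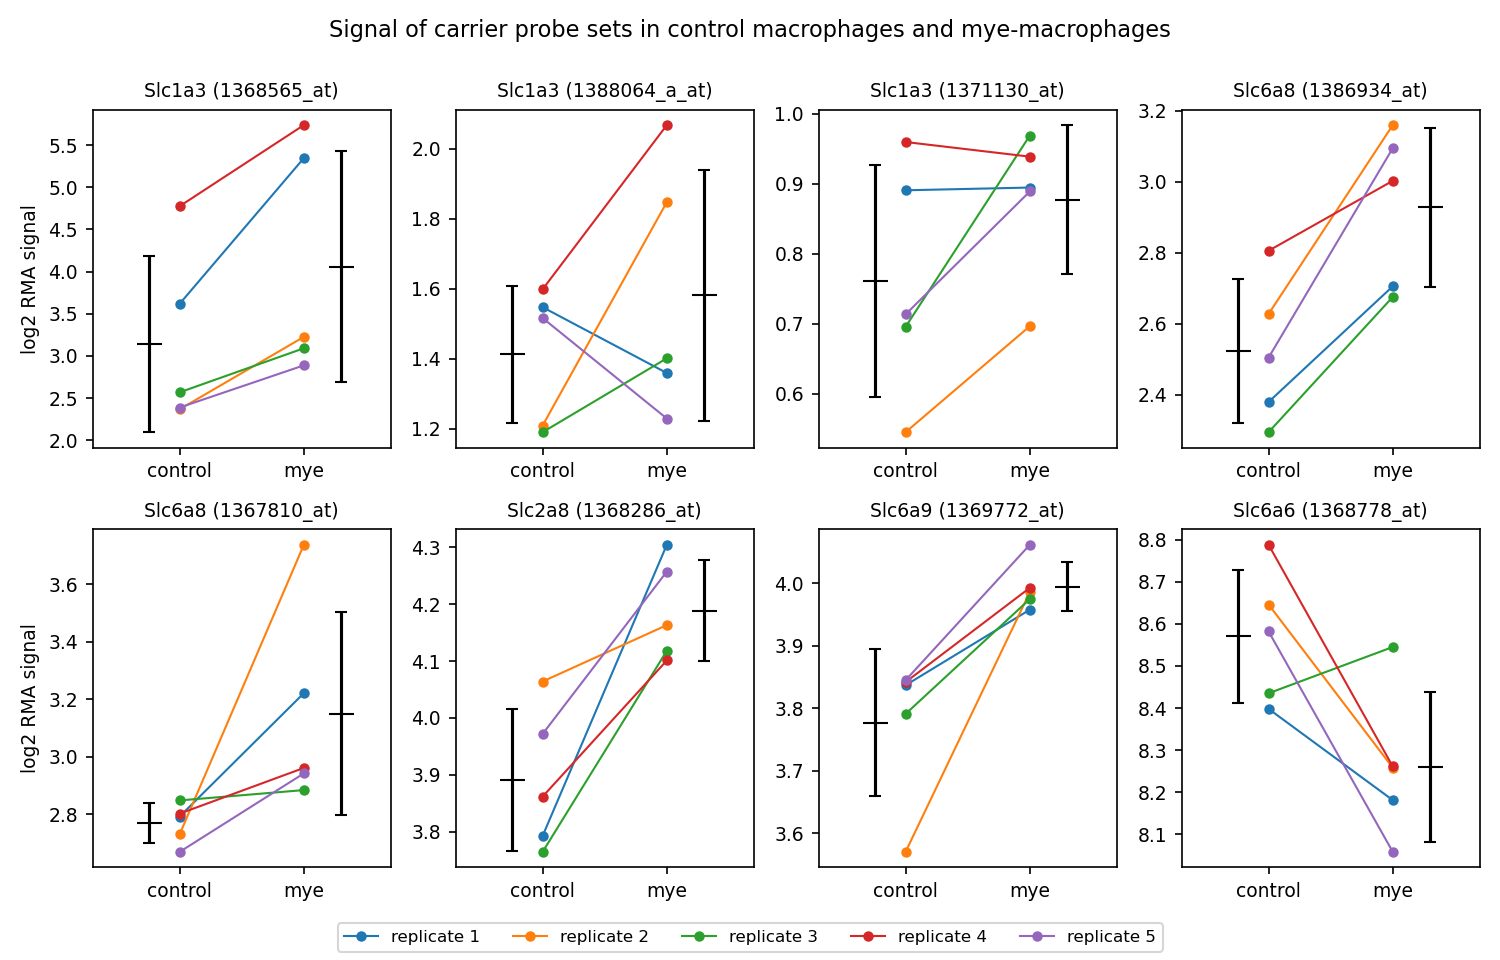
Log2 RMA signal (vertical axis, scaled separately in each panel) of 8 carrier probe sets in control macrophages and mye-macrophages. Coloured lines join samples of the same replicate number and black bars give the mean ± SD of 5 samples. All 5 lines of Slc1a3 on 1368565_at and of Slc6a8 on both probe sets go up, although the Slc1a3 samples of replicates 1 and 4 lie above the others in both groups.

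Slc1a3 is also an astrocyte marker, and the added myelin came from brain. Of 7 other astrocyte genes 2 lay above the median signal of all probe sets and none was called. Gfap, Aqp4, S100b and Aldh1l1 did not pass the variance filter on their probe sets of highest mean, so these could not be called. The mean log2 signal of the 7 genes per sample lay between 1.76 and 2.07 in control macrophages and between 1.71 and 2 in mye-macrophages. Gfap had 1.51 and 1.53 in the groups, Aqp4 0.85 and 0.77, and S100b 0.87 and 0.96. These values lay under the median of all probe sets, where a difference in RNA is compressed by background. Aldoc, a glycolytic enzyme that astrocytes express and macrophages can express too, had a log2 fold change of 0.47 (adjusted p = 0.113) and was higher in 5 of 5 pairs, as Slc1a3 was, and the gap junction gene Gja1 had -0.62 (adjusted p = 0.141). Of 9 measured genes of oligodendrocytes and myelin, 2 were called higher by their probe set of highest mean, Mobp (3.60) and Bcas1 (1.76), and the mean level of the list lay between 2.72 and 3.14 in control macrophages and between 3.33 and 3.68 in mye-macrophages. The median log2 fold change of the list was 0.082, with 6 of 9 genes above 0. Mbp was called on 1368810_a_at (3.37), while its probe set of highest mean had -0.20 and its remaining one -0.035. Control replicate 1 lay above the other controls for Mobp, Bcas1 and Mbp on 1368810_a_at. For Slc1a3 the highest controls were those of replicates 4 (4.78) and 1 (3.62), where Mobp had 1.34 and 3.44. The largest pair difference was that of pair 2 for Mobp, Bcas1 and Mbp on 1368810_a_at, and that of pair 1 for Slc1a3. Without pair 1 the log2 fold change of Slc1a3 was 0.71. The gap between the 3′ and 5′ beta-actin probe sets, a sign of RNA quality, was 3.02 ± 0.30 (SD, n = 5) in control macrophages and 3.3 ± 0.32 (SD, n = 5) in mye-macrophages (two-sided exact permutation test, p = 0.19). That test leaves the pairing out, and the gap was higher in the mye-macrophage sample in 4 of 5 pairs. With that gap as a covariate, Slc1a3 had 0.66 (adjusted p = 0.163 in limma) and Slc6a8 on 1386934_at 0.38 (adjusted p = 0.217 in limma). The paper reports, without showing the data, that the RNA content of the myelin it used was negligible. The part of myelin transcripts in the Slc1a3 and Slc6a8 values was not tested. In these bulk samples, more cells of a type and more RNA per cell cannot be told apart. Of 9 measured macrophage markers 8 lay above the median signal and none was called, nor was any marker of neurons, brain endothelium, mesothelial cells and fibroblasts, or lymphocytes, mast cells and granulocytes. The macrophage markers Cd68, Lyz2, Cd163 and Ptprc could not be called, as their probe sets of highest mean did not pass the variance filter. The same held for Syt1, Nefl, Rbfox3 and Gad1 of the neuron markers, for Wt1 and Col3a1, and for the myelin genes Mog, Mag and Cldn11.

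**Figure D3:**
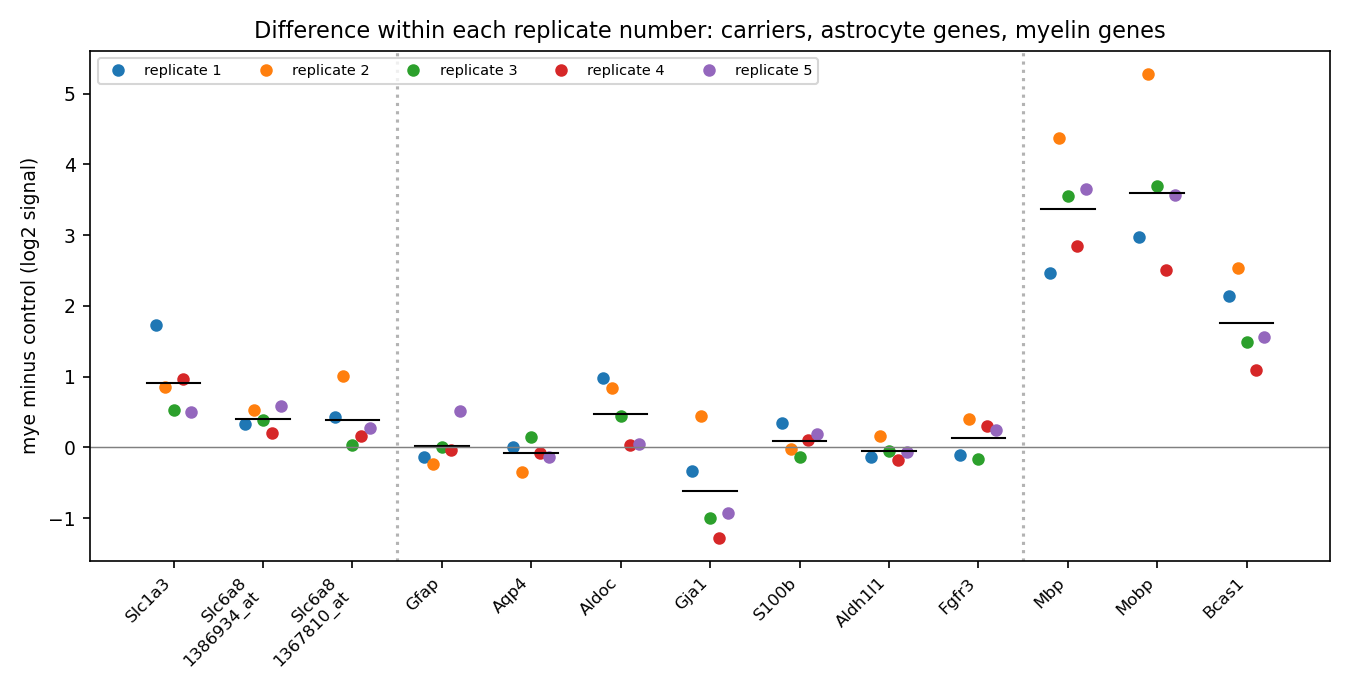
Difference in log2 signal, mye-macrophage minus control of the same replicate number (vertical axis), for Slc1a3 (1368565_at) and both Slc6a8 probe sets, 7 astrocyte genes and 3 myelin genes, separated by dotted lines. Points are the 5 pairs and bars their mean. The carrier points, those of Aldoc and those of the 3 myelin probe sets, which were chosen because they were called, lie above 0, while those of the other 6 astrocyte genes lie on both sides of it.

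Among the other Slc6a genes no probe set was called. Of the 26 Slc6a probe sets, 8 passed the variance filter and could be called. The glycine transporter gene Slc6a9, named after its values were seen, did not overlap between the groups on 1369772_at, with 3.57 to 3.85 in control macrophages and 3.96 to 4.06 in mye-macrophages, a pattern for which it was chosen. Its log2 fold change was 0.22 there (95% confidence interval 0.059 to 0.38), with the control of replicate 2 the lowest, 0.23 on a second probe set and 0.12 on the remaining one. The taurine transporter gene Slc6a6 had its 2 probe sets apart. On 1368778_at controls had 8.40, 8.65, 8.44, 8.79 and 8.58 and mye-macrophages 8.18, 8.26, 8.55, 8.26 and 8.06, lower in 4 of 5 pairs and higher in replicate 3. This gave -0.31 (95% confidence interval -0.53 to -0.087, adjusted p = 0.13), the lowest value of all members, and it passed without pair 3 (-0.41, adjusted p = 0.0341). The probe set of higher mean signal, 1374531_at, had 0.0014 (-0.22 to 0.22). In all, 19 of the 26 Slc6a probe sets, which stand for 16 genes, had log2 fold changes above 0, with a median of 0.07. Over all probe sets 51.6% lay above 0. The 19 include every probe set of Slc6a17, Slc6a9 and Slc6a8, so they are not separate genes. A mean signal above the median of all probe sets was found for 8 of the 26.

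Groups that did not overlap were found for 4 members, against 0.734% of all probe sets. Of these, 3 were higher in mye-macrophages (0.451% of all probe sets), namely the probe sets of Slc6a8 and Slc6a9 given above and that of Slc2a8. Lower without overlap (0.283% of all probe sets) was Slc7a14, a Slc7a relative named after its values were seen, with 0.83 to 1.03 in control macrophages and 0.53 to 0.81 in mye-macrophages, signals near the floor of the arrays. Neither the Slc6a9 nor the Slc7a14 probe set passed the variance filter.

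Among the glucose carriers, Slc2a8 stood nearest to a call. Slc2a8 encodes GLUT8, a transporter held mainly inside the cell. The controls numbered 1 to 5 had log2 signals of 3.79, 4.06, 3.76, 3.86 and 3.97 and the mye-macrophages 4.30, 4.16, 4.12, 4.10 and 4.26. Every mye-macrophage sample lay above every control, as on 0.451% of all probe sets. Any such separation gives the same p in the two-sided exact permutation test (p = 0.00794). The log2 fold change of Slc2a8 was 0.30 (1.23-fold, SE 0.076). Its adjusted p was 0.0725 in the blocked limma fit, and 0.0443 after quantile normalization, where the log2 fold change was 0.34. The adjusted p of Slc2a8 was 0.534 from limma without the block and 0.144 from limma without the variance filter.

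The main glucose carrier genes did not pass. Slc2a1, which encodes GLUT1, had signals of 9.91 to 10.19 in control macrophages and 9.85 to 10.28 in mye-macrophages, with a log2 fold change of 0.093 (95% confidence interval -0.084 to 0.27). Slc2a3, which encodes GLUT3, had -0.12 (-0.41 to 0.16), and its control of replicate 4 (3.09) was the highest of all samples. The mean signal of this Slc2a3 probe set, 2.153, and that of the other, 0.729, lay under the median of all probe sets, where differences are compressed. Slc2a6, a lysosomal member of the family, had -0.047 (-0.23 to 0.14). Of the 12 Slc2a probe sets 7 lay above 0, with a median of 0.033. The 10 Slc5a probe sets, the sodium-coupled carriers, lay between -0.12 and 0.10, and the multivitamin carrier gene Slc5a6, of highest mean signal among them, had -0.038 (-0.21 to 0.13).

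No heavy chain or light chain gene was called. At the median their 95% confidence intervals reached 0.18 (Slc3a) and 0.17 (Slc7a) to either side, against 0.18 for all members. Slc3a2, which encodes the heavy chain 4F2hc (CD98), had signals of 9.65 to 10.45 in control macrophages and 9.41 to 10.15 in mye-macrophages, lower in 4 of 5 pairs, with a log2 fold change of -0.16 (95% confidence interval -0.35 to 0.033, adjusted p = 0.333). Its light chain partners had -0.066 for Slc7a5 (-0.29 to 0.16), the large neutral amino acid carrier LAT1, -0.048 for Slc7a7 (-0.22 to 0.13), -0.029 for Slc7a8 (-0.21 to 0.15) and -0.018 for Slc7a6 (-0.17 to 0.13). The cationic amino acid carrier gene Slc7a2 had 0.14 (-0.057 to 0.34). For Slc7a1, of the same kind, the probe sets had 0.13 (-0.039 to 0.29), -0.093 (-0.26 to 0.076) and 0.035 (-0.11 to 0.18). None of the 16 Slc7a probe sets was called, of which 7 passed the variance filter and could be. The widest log2 difference was that of Slc7a14 (-0.20).

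Besides Slc1a3, no Slc1a gene was called, where 7 of the 10 Slc1a probe sets passed the variance filter. Slc1a5, the exchanger of glutamine and other neutral amino acids, had 7.22 to 7.47 in control macrophages and 6.91 to 7.51 in mye-macrophages. It was lower in 4 of 5 pairs, with a log2 fold change of -0.20 (95% confidence interval -0.41 to 0.0040, adjusted p = 0.255), and only the pair numbered 4 went up. Slc1a2, the other glutamate transporter of astrocytes, also named after its values were seen, had mean signals of 1.27 and 0.705 on its probe sets, under the median of all probe sets.

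Of the 11 Slc38a probe sets 9 had log2 fold changes below 0, with a median of -0.081. None was called, where 4 of the 11 passed the variance filter and could be. Slc38a7, which encodes a lysosomal glutamine exporter, had -0.25 (95% confidence interval -0.51 to -0.00016, adjusted p = 0.246) but was lower in 3 of 5 pairs only, and it was -0.051 with the beta-actin covariate. Slc38a1, a glutamine carrier gene, had -0.20, -0.16 and -0.081 on its probe sets, each lower in 4 of 5 pairs. Slc38a2, the amino acid carrier gene that starvation induces, had 8.14 to 8.55 in control macrophages and 7.95 to 8.64 in mye-macrophages, and its log2 fold change was -0.0089 (-0.17 to 0.15). The lysosomal arginine sensor gene of the mTORC1 pathway, Slc38a9, had -0.12 (-0.33 to 0.092), and Slc36a1, a lysosomal proton-coupled amino acid carrier gene, had -0.016 (-0.23 to 0.20).

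Among the monocarboxylate carriers, Slc16a3 and Slc16a6 differed most and neither passed. Slc16a3, which encodes the lactate exporter MCT4, had signals of 8.64, 7.88, 8.64, 9.46 and 8.55 in the controls numbered 1 to 5 and 9.41, 8.70, 8.50, 9.62 and 8.55 in the mye-macrophages. Replicates 1 and 2 rose while replicate 3 went the other way, and the log2 fold change was 0.32 (95% confidence interval 0.00076 to 0.64, adjusted p = 0.246). It was 0.21 without pair 1, 0.20 without pair 2 and 0.068 with the beta-actin covariate. Slc16a6, which encodes MCT7, had -0.29 (-0.68 to 0.095) on 1376267_at and -0.24 (-0.45 to -0.042) on 1390036_at, where it was lower in 5 of 5 pairs (adjusted p = 0.174). With the same covariate these were -0.021 and -0.12. Slc16a1, which encodes MCT1, had -0.10 (-0.29 to 0.089). For Slc16a13, named after its values were seen, 1 probe set had -0.21 (lower in 4 of 5 pairs, with replicate 1 equal in both groups) and the other 0.046. Of 20 member genes with several probe sets, 12 had all of them on the same side of 0 and 8 did not.

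The replicate numbers differed in level for some carriers. The mean signal of the 2 samples of a number ranged over 0.341 at the median of the 103 probe sets, against 0.312 over all probe sets tested. The range was over 1 for 10 members, a share of 9.71% against 5.61% of all probe sets. It was widest for Slc1a3 (2.62 on 1368565_at), where the number 4 was highest, followed by Slc5a3 (1.77), the inositol carrier gene, highest in number 2, and Slc16a6 (1.74), highest in number 5 and lowest in number 4. Of these 10 probe sets 4 were highest in number 4 (those of Slc1a3, Slc7a1, Slc16a3 and Slc2a3), 4 in number 2 (those of Slc5a3, Slc2a13, Slc16a7 and Slc7a6os) and 2 in number 5, and number 4 was also the lowest for 4 of them. For Slc7a1 on 1368391_at the control of replicate 4 had 5.82 and its mye-macrophage sample 5.96, while the other samples lay between 4.57 and 4.93. What the numbers stand for is not stated.

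**Figure D4:**
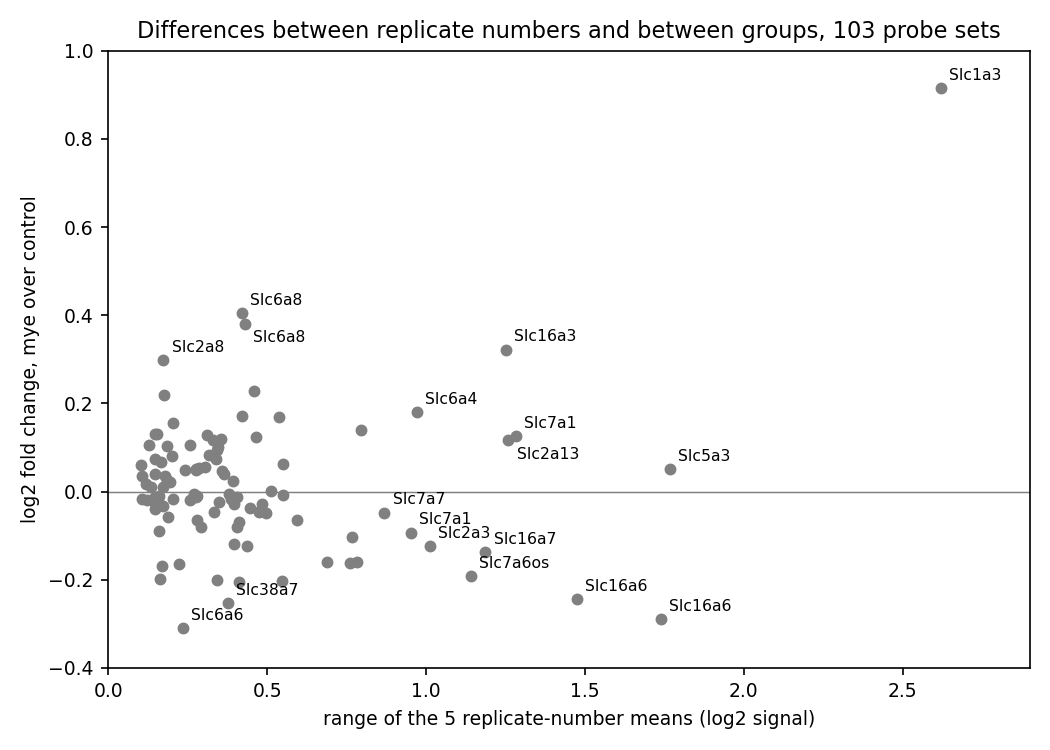
Log2 fold change of the 103 carrier probe sets (mye-macrophages over control macrophages, vertical axis) against the range of the means of the 5 replicate numbers (log2 signal, horizontal axis), with the genes at the edges named. Slc1a3 lies at 2.62 and 0.91, and the Slc6a8 and Slc2a8 points lie far to the left of it.

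Of 80 other measured genes of amino acid and fuel metabolism, taken as 5 lists with 1 probe set per gene, 2 were called higher and 1 lower, against 0.792% and 1.9% of all filtered probe sets, and none was called in limma without the block. Some of these genes, such as Glud1, Aldoa and Ldha, did not pass the variance filter and could not be called. Asns, the asparagine synthetase gene that amino acid shortage induces, had 4.88, 4.16, 4.96, 6.54 and 4.67 in the controls numbered 1 to 5 and 5.83, 4.67, 5.55, 6.94 and 4.92 in the mye-macrophages. It was thus high in replicate 4 in both groups, as Slc1a3 was, and had a log2 fold change of 0.54 (SE 0.098, adjusted p = 0.028). It was the only one of 21 measured genes of the amino acid response and tRNA synthetases that was called. Sgk1, a kinase gene whose product raises the surface level of several carriers, was higher by 0.31 (adjusted p = 0.0475), 1 of 13 measured partners and regulators of the carriers. Ido1, the tryptophan-degrading enzyme that IFNγ induces, had a log2 fold change of -0.38 (adjusted p = 0.0452), 1 of 17 enzyme genes of arginine, tryptophan and branched-chain amino acids. None of 10 enzyme genes of glutamate and glutamine was called (median log2 fold change 0.072), among them Glul, glutamine synthetase, with -0.062. None of 19 enzyme genes of glucose and lactate was called, and 17 of them had values above 0 (median 0.091), against 51.6% of all probe sets. The pairs did not all go the same way. In pair 3 some of these genes were lower in the mye-macrophages, such as Gpi and Tpi1, and others higher, such as Hk2 and Pdk1. Basigin (Bsg), the chaperone of the lactate carriers, had -0.094.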

How the data were processed

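Log2 signals per probe set, deposited by the authors, had been computed from the scanned arrays by RMA in the affy package (version not given in the sources used here). Probe sets took their gene from the array annotation, and all 103 members have the same symbol in RefSeq today. After removal of 57 Affymetrix controls, limma 3.58.1 (R 4.3.3, with lmFit and eBayes) was fitted to 31042 probe sets with the replicate number as a block. Benjamini-Hochberg adjustment covered only the 50% that varied most, after the filter in the methods, whose test was unpaired and was run as an alternative. Pairs were formed from the replicate numbers in the labels, which do not state that samples of the same number belong together. Deviations of same-numbered samples from their group means had correlations of 0.404 to 0.791, against at most 0.279 for other samples. Exact permutation tests used SciPy 1.17.1. The blocked fit was first tested on simulated data.

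Members and lists were chosen with earlier results of these data known. The text names every called probe set with the others of its gene, 21 carriers with macrophage roles or listed by the study, the gene of highest mean signal per family, and the 3 largest rises and 3 largest falls past the filter. Other members named with values (Slc1a2, Slc6a9, Slc16a13, Slc7a14, Slc5a3, and further probe sets of Slc16a6, Slc7a1 and Slc38a1) were picked after seeing them, as were Slc2a13, Slc16a7 and Slc7a6os. Alternatives left out the block, the filter or each pair in turn, or changed the test, filter, scaling, weights, prior, RNA-quality term or choice of probe set. Precision is set by the 5 arrays per group.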

Additional observations from a re-analysis of the deposited data

Results flagged for a closer look

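In 6 of 78 groups of 5 samples examined (39 named probe sets in each group), 1 sample lay apart from the others by more than Dixon's limit, and chance flags about 1 in 20. The control of replicate 4 had 5.82 for Slc7a1 on 1368391_at (next 4.75) and the mye-macrophage sample of replicate 4 had 5.96 (next 4.93). On another Slc7a1 probe set, 1387167_at, the mye-macrophage sample of replicate 2 was lowest with 0.667. The mye-macrophage sample of replicate 2 had 8.36 for Slc16a1 (next 7.84). The control of replicate 5 had 10.3 for Slc6a6 on 1374531_at (next 10.09). The control of replicate 2 had 3.57 for Slc6a9 on 1369772_at (next 3.79).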

How the results depend on the processing

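The calls of carriers depended on the pairing. Against 2 probe sets called higher, 0 were called without the replicate block, with the methods' t-test or with a beta-actin covariate, 1 (Slc1a3) without the variance filter, 1 with the probe set of highest mean per gene, and 0 to 2 without 1 pair (0 without pair 1, 2, 4 or 5, and 2 without pair 3). Against 0 called lower, 1 (Slc6a6) was called with a trended, robust prior, and 0 to 1 without 1 pair. Of the other amino acid and fuel genes 3 were called, 0 without the replicate block, with the methods' t-test, without the filter or with the beta-actin covariate, 9 with the trended, robust prior, and 0 to 2 without 1 pair. The cause was not tested. Directions near 0 turned for some genes. With the beta-actin covariate the log2 fold change was 0.012 for Slc16a1, 0.047 for Slc38a2, 0.023 for Slc38a9, 0.11 for Slc7a5, 0.027 for Slc7a7 and 0.021 for Slc7a8. With array weights it was 0.016 for Slc36a1, and after quantile normalization -0.0039 for Slc6a6 (1374531_at) and 0.00074 for Slc7a8. Without 1 pair it ranged from -0.013 to 0.11 for Slc16a13 (1382003_at), -0.11 to 0.011 for Slc2a6, -0.078 to 0.061 for Slc36a1, -0.034 to 0.037 for Slc38a2, -0.075 to 0.023 for Slc5a6, -0.058 to 0.11 for Slc6a6 (1374531_at), -0.12 to 0.038 for Slc7a5, -0.051 to 0.0011 for Slc7a6 and -0.063 to 0.045 for Slc7a8. Of the 39 named probe sets, 39 kept their direction and side of the threshold after median centring and with a filter on mean signal. Signals near the array floor limit what can be seen for 59 members.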
